A study of Homo sapiens with 4 samples.

Results

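Laminin chains and integrin subunits, the genes for a main class of basement membrane protein and for the cell surface receptors that hold it, were followed through SMPD1 and GPR64 silencing in A673 cells. Members were taken by gene symbol: every laminin alpha, beta or gamma chain and every integrin alpha or beta subunit named in the gene tables. This gave 38 of 23228 genes, 12 laminin chains and 26 integrin subunits. A673 is an established Ewing sarcoma line that grows attached to plastic. Each of 4 total RNA libraries came from cells transfected for 48 h with siRNA: siSMPD1 (against acid sphingomyelinase), siGPR64 (against an adhesion G protein-coupled receptor, also called ADGRG2), and a scrambled siRNA control for each, here the SMPD1 control and the GPR64 control. Nothing in the labels but the titles pairs a control with a knockdown. The title of the GPR64 control names GPR64, while that of the SMPD1 control names no target, so the SMPD1 pairing is inferred. All 4 groups shared the same line, medium with serum and insulin, and lipid transfection. Each group held 1 library, so a ratio between libraries has no replicate check and no p-value is given for it. The sources used here do not give the siRNA sequences.

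Laminins are cross-shaped trimers of 1 alpha, 1 beta and 1 gamma chain that polymerise into the sheet under epithelial, endothelial and muscle cells. Integrins are heterodimers of 1 alpha and 1 beta subunit. The pair decides the ligand: some bind laminin, some collagen, some the arginine-glycine-aspartate (RGD) motif of fibronectin and vitronectin, and some are restricted largely to leukocytes. The ITGB1 product pairs with most alpha subunits of adherent cells, and the ITGAV product pairs with several beta subunits, among them that of ITGB5. In Ewing sarcoma cells adhesion and matrix genes are known to lie partly under the control of the EWS-FLI1 fusion.

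The libraries differed in depth. Gene counts summed to 18849264 in the siSMPD1 library and 19614913 in the SMPD1 control, but to 2534861 in the siGPR64 library and 2882854 in the GPR64 control. Levels are given as counts per 1000000 (CPM) of library size scaled by the trimmed mean of M values. A count of 0 allows a level of up to 3 counts, which is 0.159 CPM in the siSMPD1 library, 0.156 CPM in the SMPD1 control, 1.18 CPM in the siGPR64 library and 1.03 CPM in the GPR64 control. Each targeted gene was lower in the library that silenced it than in that library's own control. SMPD1 stood at 91.7 CPM in the siSMPD1 library and 414 CPM in its control. GPR64 stood at 50.1 CPM in the siGPR64 library and 109 CPM in its control. Both targets also differed outside their own pair: SMPD1 had 232 CPM in the siGPR64 library and 52.8 CPM in the GPR64 control, and GPR64 539 CPM in the siSMPD1 library and 388 CPM in the SMPD1 control. The labels give muscle as the tissue, but of the 10 muscle genes examined MYOD1, MYOG, MYF5 and TNNT3 were listed at 0 in all 4 libraries, and DES, CKM, ACTA1 and MYH8 were at or under 0.318 CPM where they had counts. MYH3 had 1.43 to 2.03 CPM, and PAX7, a muscle stem cell factor, stood at 190 CPM in the siSMPD1 library, 197 in the SMPD1 control, 126 in the siGPR64 library and 24 in the GPR64 control. The Ewing markers NR0B1 and NKX2-2 were present. CD99, an Ewing surface marker, was listed at 0 in all 4.

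Of the 38 members, 23 averaged at least 1 CPM in at least 1 knockdown and control pair: 21 in the SMPD1 pair, 22 in the GPR64 pair and 20 in both. The other 15 were under that level in both pairs: LAMA1, LAMB4, LAMC3, ITGA8, ITGA10, ITGA11, ITGA2B, ITGAD, ITGAL, ITGAM, ITGAX, ITGB3, ITGB6, ITGB7 and ITGB8. ITGAD and ITGB6 had no count in any library. Per kilobase of exon, the scale on which genes can be set against each other, the laminin transcripts were dominated by LAMB1 and LAMC1. LAMB1, a laminin beta chain, had 40 CPM per kb in the siSMPD1 library and 45.1 in the SMPD1 control. It had 44.6 in the siGPR64 library and 41.8 in the GPR64 control. LAMC1, the gamma chain found in most laminins, had 41.2, 21.8, 37.2 and 36.9 CPM per kb in the same order. The alpha chains summed to far less, 2.47, 1.57, 3.17 and 2.25 CPM per kb over all 5 genes. Thus in each library the laminin alpha chains together had a lower level per kb than LAMB1 or LAMC1 alone.

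Among integrins, ITGB1 had 67.1 CPM per kb in the siSMPD1 library, 45.9 in the SMPD1 control, 42.5 in the siGPR64 library and 69.1 in the GPR64 control, the highest integrin level in all 4, although ITGA5 came close in the siGPR64 library. ITGA5, whose product pairs with that of ITGB1 to form the classical fibronectin receptor, followed with 43.7, 37.4, 41.4 and 28.4 CPM per kb in the same order. ITGB5, a vitronectin receptor subunit, had 31.9, 27.4, 36.0 and 11.5 CPM per kb, and ITGAV, its alpha partner, 13.0, 18.9, 9.30 and 7.47. The laminin-binding alpha subunits ITGA3, ITGA6 and ITGA7 summed to 10.9, 6.71, 4.49 and 5.12 CPM per kb. ITGB4, which anchors epithelial cells to laminin through hemidesmosomes, stood at 0.259, 0.169, 0.521 and 0.0507 CPM per kb.

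**Figure D1:**
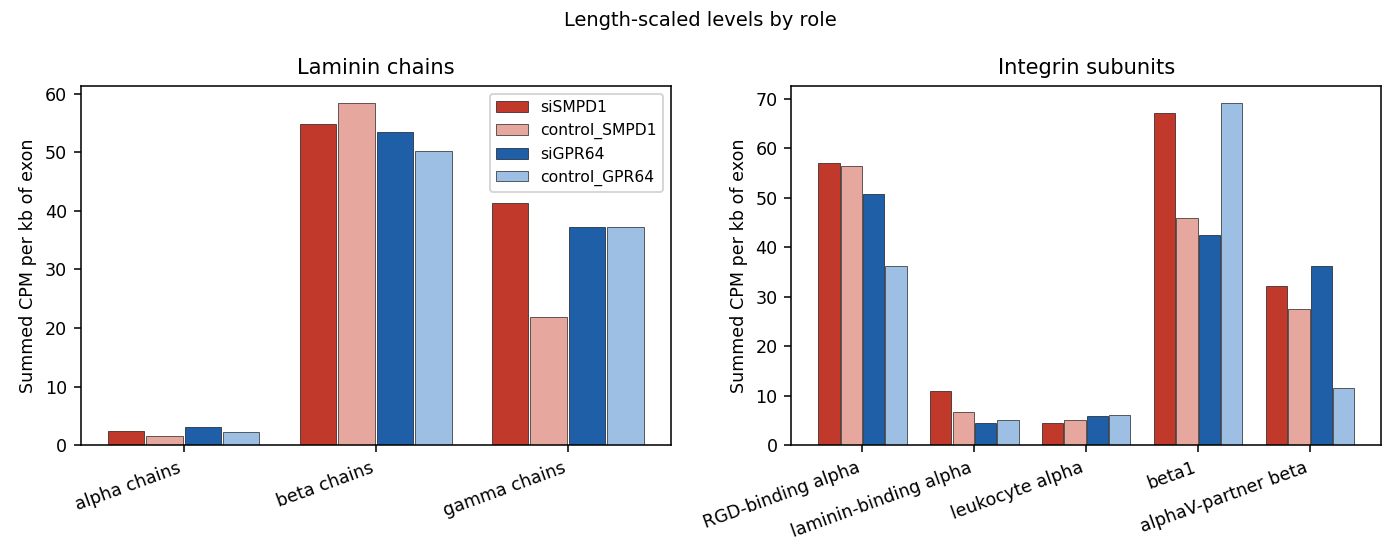
Summed level of each role in CPM per kb of union exon length (bars, axis from 0), 1 bar per library, with laminin chains by type on the left and 5 integrin roles on the right. The laminin gamma chains stood at 41.3 CPM per kb in the siSMPD1 library and 21.9 in its control, of which LAMC1 alone made up 41.2 and 21.8. The beta subunits that pair with ITGAV stood at 36.1 in the siGPR64 library and 11.6 in its control, of which ITGB5 alone made up 36 and 11.5.

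The promoter sequences of 4 members whose levels differed between libraries are shown so that the regions upstream of a laminin alpha chain, a laminin gamma chain and both main beta integrins can be compared. ITGB1 and ITGB5 each have 1 further window without a match to any motif searched, not shown. RefSeq (GRCh38.p14) gave windows for 26 of the 38 members, 33 windows in all, because several genes have more than 1 start. Each sequence is the part of the 250 bases upstream of a start that lies outside annotated exons, written on the gene's own strand. Capitals mark matches to GGGCGG (the core SP1 motif), GGAATG (TEAD) or TGATGNAA (ATF4) on either strand, so CCGCCC is a GGGCGG match on the other strand. LAMA5 lies at chr20:62367313-62367562, minus strand; LAMC1 at chr1:183023170-183023419, plus strand; ITGB1 at chr10:32958233-32958480, minus strand; and the ITGB5 windows at chr3:124887366-124887599 and chr3:124901419-124901668, minus strand.
LAMA5: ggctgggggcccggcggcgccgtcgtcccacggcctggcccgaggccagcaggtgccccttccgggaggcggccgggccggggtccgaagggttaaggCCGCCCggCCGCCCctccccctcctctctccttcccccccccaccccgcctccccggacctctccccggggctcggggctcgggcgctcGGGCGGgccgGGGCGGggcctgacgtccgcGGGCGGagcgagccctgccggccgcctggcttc
LAMC1: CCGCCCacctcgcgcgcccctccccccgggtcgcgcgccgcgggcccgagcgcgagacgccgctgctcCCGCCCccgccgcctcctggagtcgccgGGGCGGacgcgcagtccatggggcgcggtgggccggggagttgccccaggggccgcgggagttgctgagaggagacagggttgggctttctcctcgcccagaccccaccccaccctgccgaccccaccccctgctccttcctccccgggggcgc
ITGB1: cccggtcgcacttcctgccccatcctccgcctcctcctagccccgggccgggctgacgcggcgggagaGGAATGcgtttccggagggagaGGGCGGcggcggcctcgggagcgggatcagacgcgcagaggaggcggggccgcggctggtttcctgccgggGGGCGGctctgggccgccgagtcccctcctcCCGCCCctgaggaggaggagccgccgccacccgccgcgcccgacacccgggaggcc
ITGB5, near 124887366: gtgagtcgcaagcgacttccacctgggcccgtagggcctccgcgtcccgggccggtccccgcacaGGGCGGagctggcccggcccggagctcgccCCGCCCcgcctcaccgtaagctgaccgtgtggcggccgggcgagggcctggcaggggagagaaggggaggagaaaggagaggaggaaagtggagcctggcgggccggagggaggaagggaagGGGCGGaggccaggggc
ITGB5, near 124901419: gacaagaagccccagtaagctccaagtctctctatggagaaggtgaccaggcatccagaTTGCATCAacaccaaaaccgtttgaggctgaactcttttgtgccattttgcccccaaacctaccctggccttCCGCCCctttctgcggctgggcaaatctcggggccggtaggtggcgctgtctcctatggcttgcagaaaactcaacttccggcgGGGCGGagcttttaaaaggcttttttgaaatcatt
The windows shown hold GGGCGG: 5 matches for LAMA5, 3 for LAMC1, 3 for ITGB1, and 3 and 2 in the ITGB5 windows in the order printed. GGAATG occurs once for ITGB1, and TGATGNAA once in the ITGB5 window at 124901419. Over the 33 windows of members, GGGCGG was found in 17 (51.5%), against 42.6% of all 35116 windows, and GGAATG in 4 (12.1%), against 11.9%. TGANTCA, the AP-1 motif, was in 2 (6.06%), against 6.57% of all windows, and TGATGNAA in 1 (3.03%), against 3.14%. A pair of GGAA in a row, the letters that EWS-FLI1 binds as repeats, was in 2 windows of members (6.06%), against 3.06% of all windows. A match describes these letters only.

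SMPD1 silencing was compared with its control first. In the siSMPD1 library 4 members were higher, namely the laminin chain LAMA5 and the integrin subunits ITGA4, ITGA7 and ITGB2, and no member was lower. The rule of size behind these counts asks that a gene average 1 CPM or more over the pair, differ by 2-fold or more, and keep equality outside the 95% counting interval. All intervals cover counting error only. The 4 were 19% of the 21 members measured in the pair, while 2.49% of the 12749 genes measured were higher by the same rule and 1.11% were lower. The median log2 ratio of the 21 was 0.36, against -0.0039 over all genes, with 14 of them above 0 and 7 below.

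LAMA5, the alpha chain of the most widespread laminins of adult tissue, had 302 counts (16.0 CPM) in the siSMPD1 library and 106 counts (5.52 CPM) in its control. That is a 2.89-fold higher level, with an interval of 2.32 to 3.65. Of the GPR64 pair, the siGPR64 library lay between these values at 11.4 CPM and the GPR64 control above both at 21.6 CPM. LAMC1 had 6534 counts (346 CPM) in the siSMPD1 library and 3518 counts (183 CPM) in its control, 1.89-fold higher (1.81 to 1.97) and just short of 2-fold. The SMPD1 control was the low library for LAMC1, since the GPR64 pair had 313 CPM in the siGPR64 library and 310 CPM in its control. LAMA2, the laminin chain of muscle and nerve basement membranes, was 1.91-fold higher (1.44 to 2.56), with 7.58 CPM in the siSMPD1 library and 3.96 CPM in its control.

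The other measured laminin chains differed less or ran the other way. LAMA4, a chain of vessel laminins, was 1.94-fold lower (1.18 to 3.35), with 24 counts (1.27 CPM) in the siSMPD1 library and 48 counts (2.50 CPM) in its control. LAMB1 had 325 CPM in the siSMPD1 library and 367 CPM in its control, 1.13-fold lower (1.09 to 1.17). LAMB2 was 1.35-fold higher (1.23 to 1.48), with 54.6 CPM in the siSMPD1 library and 40.5 CPM in its control. LAMA3 and LAMB3, the alpha and beta chains of the laminin under epidermis, had intervals that included equality: LAMA3 stood at 7.52 CPM in the siSMPD1 library and 8.48 CPM in its control, and LAMB3 at 32.2 and 34.7 CPM. Summed over all 12 chains, laminin counts came to 792 CPM in the siSMPD1 library and 647 CPM in its control, 1.22-fold higher (1.2 to 1.25). By type the gamma chains were 1.89-fold higher (1.81 to 1.97), and the beta chains 1.07-fold lower. The gamma value is in effect that of LAMC1 again. LAMC1 gave 6534 of the 6545 gamma chain counts in the siSMPD1 library and 3518 of 3531 in its control.

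The integrin subunits past the rule came from 3 different classes. ITGA7, a laminin receptor subunit best known from skeletal muscle, had 685 counts (36.3 CPM) in the siSMPD1 library and 334 counts (17.4 CPM) in its control, 2.09-fold higher (1.83 to 2.39). The siSMPD1 library was the highest of the 4 for ITGA7, since the siGPR64 library had 9.79 CPM and the GPR64 control 12.7 CPM. ITGA4, whose product binds fibronectin and VCAM1, had 115 counts (6.09 CPM) in the siSMPD1 library and 49 counts (2.55 CPM) in its control, 2.38-fold higher (1.70 to 3.41). Both libraries of the GPR64 pair were above these, at 20.4 CPM in the siGPR64 library and 11.3 CPM in its control. ITGB2, the common beta subunit of the leukocyte integrins, had 393 counts (20.8 CPM) in the siSMPD1 library and 180 counts (9.37 CPM) in its control, 2.22-fold higher (1.86 to 2.67). It stood at 7.83 CPM in the siGPR64 library and 9.25 CPM in the GPR64 control, so that 3 libraries were close together and the siSMPD1 library above them.

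The presence of ITGB2 was set beside the leukocyte markers. PTPRC, the pan-leukocyte marker, had 2 counts (0.106 CPM) in the siSMPD1 library, 3 counts (0.156 CPM) in the SMPD1 control and 0 counts in the GPR64 pair, and TYROBP, CD3E and LYZ were listed at 0 in all 4. The 8 leukocyte markers summed to 13.6 CPM in the siSMPD1 library, 10.7 in the SMPD1 control, 7.44 in the siGPR64 library and 3.08 in the GPR64 control, of which CD68, a lysosomal gene that other cells also express, made up 12.7, 10.2, 7.05 and 2.74. ITGAL, ITGAM, ITGAX and ITGAD, the alpha partners of ITGB2, had at most 9 counts in any library. In bulk RNA, fewer cells of a type and less RNA per cell cannot be told apart.

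Several integrins with many counts differed by less than 2-fold in the SMPD1 pair, beyond counting error. ITGB1 had 7612 counts (403 CPM) in the siSMPD1 library and 5298 counts (276 CPM) in its control, 1.46-fold higher (1.41 to 1.52). ITGAV was 1.45-fold lower (1.37 to 1.53), with 107 CPM in the siSMPD1 library and 155 CPM in its control. ITGA5 was 1.17-fold higher (1.13 to 1.21), with 331 CPM in the siSMPD1 library and 283 CPM in its control, and ITGB5 1.16-fold higher (1.11 to 1.22), with 206 and 177 CPM. As ITGA5 and ITGAV ran opposite ways, the summed RGD-binding alpha subunits were level, at 439 CPM in each library (interval of the ratio 0.971 to 1.03). ITGA6, a laminin receptor alpha of epithelia, was 1.29-fold higher (1.14 to 1.45), with 31.8 CPM in the siSMPD1 library and 24.7 CPM in its control. ITGA3, another laminin receptor alpha, had 3.07 CPM in the siSMPD1 library and 1.93 CPM in its control, 1.59-fold higher (1.04 to 2.48). With ITGA7, all 3 laminin-binding alpha subunits thus lay above the control, and their sum was 1.62-fold higher (1.48 to 1.76). ITGAE, an alpha subunit known from epithelial T cells, had 29.1 CPM in the siSMPD1 library and 32.9 CPM in its control, 1.13-fold lower (1.01 to 1.27). The intervals of ITGA1, ITGA2 and ITGB4 included equality.

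**Figure D2:**
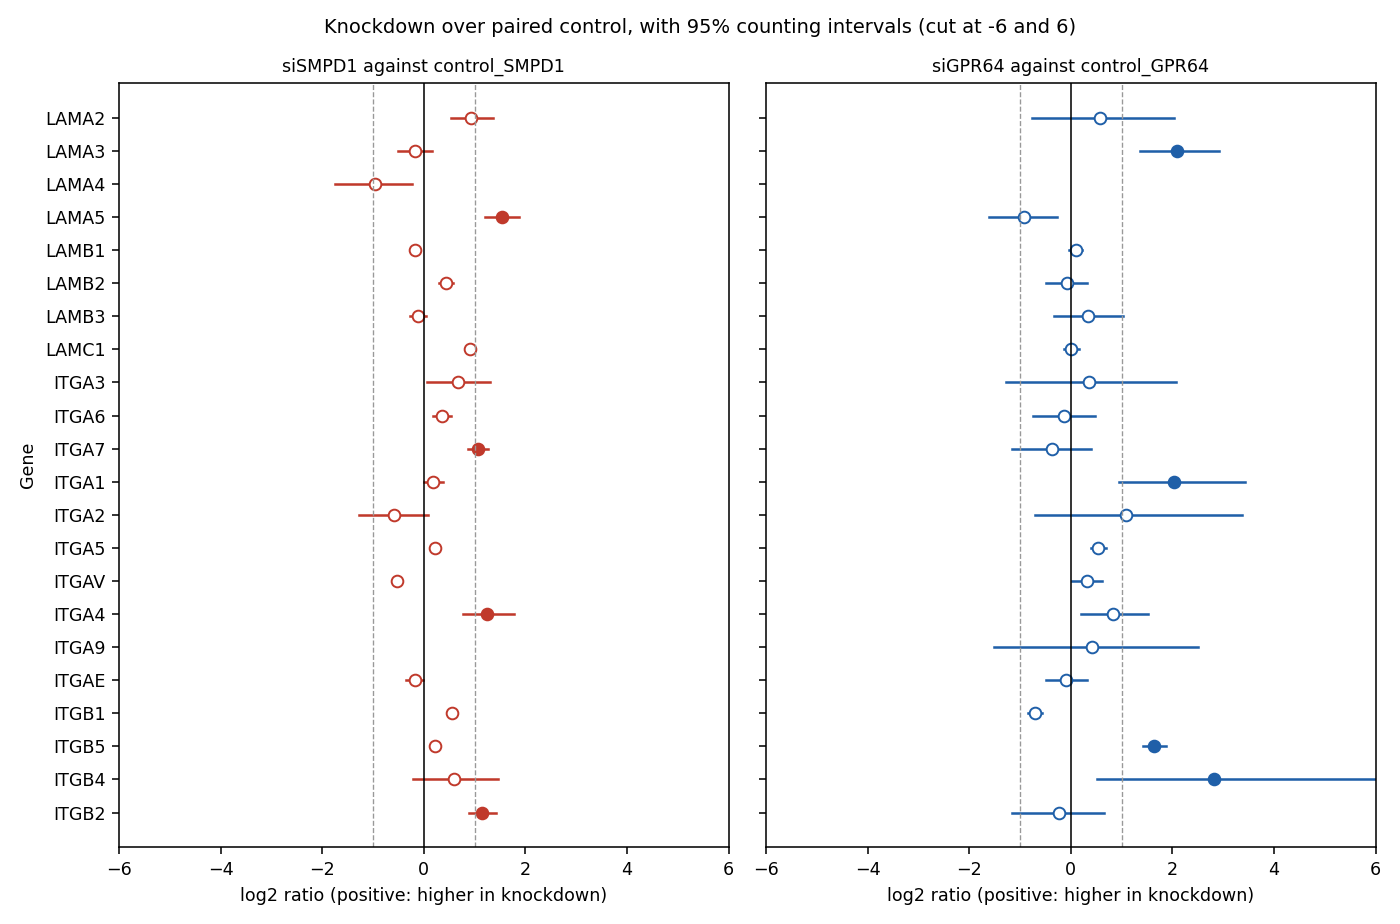
Log2 ratio of measured laminin and integrin genes in the knockdown library over its control, with 95% counting intervals, siSMPD1 on the left and siGPR64 on the right. Filled points passed the rule of size: LAMA5, ITGA7, ITGA4 and ITGB2 for siSMPD1, and LAMA3, ITGA1, ITGB5 and ITGB4 for siGPR64.

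Other members passed the rule in the GPR64 pair. In the siGPR64 library LAMA3, ITGA1, ITGB5 and ITGB4 were higher than in the GPR64 control, 4 of the 22 members measured (18.2%), against 6.56% of 12830 genes. In the other direction 1 member was lower (4.55% of the 22), against 5.18% of all genes measured, and that share is close to the background. ITGB4 reached the average of 1 CPM only through the siGPR64 library (3.53 CPM), as its control had 0.343 CPM. At a mean of at least 5 CPM, 3 of 16 members were higher and 0 lower, against 6.09% and 4.87% of all genes. The median log2 ratio of the 22 was 0.33, against 0.01 over all genes, with 14 above 0 and 8 below. Intervals in this pair were wider than in the deeper SMPD1 pair.

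LAMA3 had 72 counts (28.2 CPM) in the siGPR64 library and 19 counts (6.51 CPM) in its control, 4.24-fold higher (2.59 to 7.61). The siGPR64 library stood above the other three, which lay between 6.51 and 8.48 CPM. LAMB3 had 16.1 CPM in the siGPR64 library and 12.7 CPM in its control, with an interval that included equality (1.26-fold, 0.793 to 2.03). LAMA5 had 29 counts (11.4 CPM) in the siGPR64 library and 63 counts (21.6 CPM) in its control, 1.89-fold lower (1.21 to 3.06).

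The abundant laminin chains were level in the GPR64 pair. LAMC1 had 799 counts (313 CPM) in the siGPR64 library and 905 counts (310 CPM) in its control, a 1.01-fold ratio whose interval of 0.917 to 1.11 leaves out the 1.89-fold of the SMPD1 pair. LAMB1 was 1.07-fold higher (0.975 to 1.17), with 363 CPM in the siGPR64 library and 340 CPM in its control. LAMB2 had 37.2 CPM in the siGPR64 library and 39.4 CPM in its control. LAMA4 had no count in either library of the pair. Laminin counts summed to 774 CPM in the siGPR64 library and 736 CPM in its control, 1.05-fold higher with an interval of 0.988 to 1.12.

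ITGB5 was the abundant integrin that differed most in the GPR64 pair. It had 593 counts (232 CPM) in the siGPR64 library and 217 counts (74.3 CPM) in its control, 3.12-fold higher (2.67 to 3.67). The GPR64 control was the low library, since the siSMPD1 library had 206 CPM and the SMPD1 control 177 CPM. ITGB1 ran the other way, with 652 counts (255 CPM) in the siGPR64 library and 1212 counts (415 CPM) in its control, 1.63-fold lower (1.48 to 1.79) and short of 2-fold. ITGAV was 1.25-fold higher (1.01 to 1.53), with 76.4 CPM in the siGPR64 library and 61.3 CPM in its control. ITGA5 was 1.46-fold higher (1.31 to 1.62), with 314 CPM in the siGPR64 library and 215 CPM in its control.

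The collagen receptor subunit ITGA1 had 30 counts (11.8 CPM) in the siGPR64 library and 8 counts (2.74 CPM) in its control, 4.08-fold higher (1.92 to 10.8). Both were below the SMPD1 pair, where ITGA1 had 25 CPM in the siSMPD1 library and 21.9 CPM in its control. ITGA2, the other measured collagen receptor alpha, had 8 counts in the siGPR64 library and 4 in its control, too few to separate them. ITGB4 had 9 counts in the siGPR64 library and 1 in its control, a ratio of 10.3 by counts alone with an interval of 1.43 to 451, or 7.06 with the prior count that the other folds carry. ITGA4 was 1.79-fold higher (1.14 to 2.88), with 20.4 CPM in the siGPR64 library and 11.3 CPM in its control. Intervals included equality for ITGA3, ITGA6, ITGA7, ITGA9, ITGAE and ITGB2. Integrin counts summed to 999 CPM in the siGPR64 library and 870 CPM in its control, 1.15-fold higher (1.09 to 1.21). Against the SMPD1 control, at 1010 CPM, the sum turned to 1.01-fold lower, with an interval of 0.97 to 1.05 that included equality. In the SMPD1 pair they came to 1210 CPM in the siSMPD1 library and 1010 CPM in its control, 1.2-fold higher (1.17 to 1.22).

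**Figure D3:**
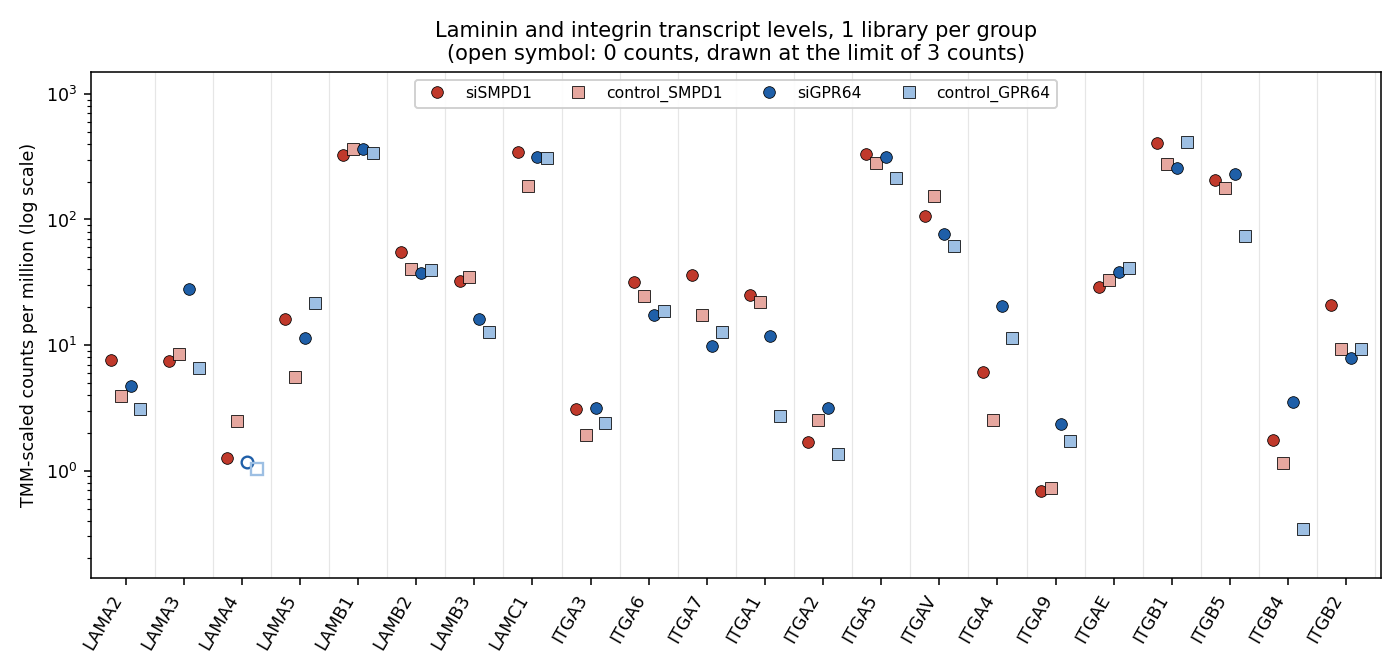
Level in CPM (log axis) of measured laminin and integrin genes in each of the 4 libraries, each point 1 library, with an open marker at the limit that 0 counts allow (LAMA4 in the GPR64 pair). ITGB5 stood at 74.3 CPM in the GPR64 control and between 177 and 232 CPM elsewhere, and LAMA3 at 28.2 CPM in the siGPR64 library and between 6.51 and 8.48 CPM elsewhere.

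Both controls received scrambled siRNA, and they were compared as a measure of how far 2 control libraries of this study differ. In the GPR64 control, 3 of 22 members were higher than in the SMPD1 control (13.6%), ITGA4 and LAMA5 among them, and ITGA1, LAMB3, ITGAV, ITGB5 and LAMA4 were lower (5 of 22, 22.7%). Of all 12798 genes measured in both controls, 7.02% were higher and 8.33% lower. The controls thus differed past the rule in more members than either knockdown did from its own control. ITGA1 was 7.88-fold lower (4.02 to 18.6), ITGAV 2.52-fold lower (2.17 to 2.95) and ITGB5 2.38-fold lower (2.07 to 2.74) in the GPR64 control. LAMB3 was 2.73-fold lower (1.97 to 3.92). LAMA4 had 0 counts in the GPR64 control and 48 in the SMPD1 control, 2.43-fold lower with the 0 set to 3 counts. The counting interval of this ratio began at 1.9-fold lower and had no upper end. LAMA4 reached the average of 1 CPM only through the SMPD1 control. At a mean of at least 5 CPM, 2 of 16 members were higher and 4 lower in the GPR64 control, against 5.12% and 7.44% of all genes. ITGA4 was 4.37-fold higher (2.76 to 7.03) and LAMA5 3.89-fold higher (2.82 to 5.39). The median log2 ratio of the 22 members was -0.23, against -0.01 over all genes.

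Each knockdown was therefore also set against the other control. In these crossed comparisons SMPD1 itself was higher in the siSMPD1 library (91.7 CPM) than in the GPR64 control (52.8 CPM). GPR64 was lower in the siGPR64 library (50.1 CPM) than in the SMPD1 control (388 CPM). Of the 4 members higher in the siSMPD1 library, ITGA7 was 2.86-fold higher (2.06 to 4.10) and ITGB2 2.25-fold higher (1.52 to 3.46) than in the GPR64 control too. LAMA5 and ITGA4 changed sign: against the GPR64 control LAMA5 was 1.35-fold lower (1.01 to 1.77) and ITGA4 1.85-fold lower (1.22 to 2.75) in the siSMPD1 library. For siGPR64 set against the SMPD1 control, LAMA3 was 3.31-fold higher (2.48 to 4.41) and ITGB4 3-fold higher (1.25 to 6.96), where ITGB4 rests on 9 counts in the siGPR64 library and 22 in the SMPD1 control. ITGB5 kept its sign at 1.31-fold higher (1.2 to 1.43), short of 2-fold. ITGA1 was 1.86-fold lower (1.29 to 2.80). The abundant members short of the rule also depended on the control. Against the GPR64 control, the siSMPD1 library was level in ITGB1 (1.03-fold lower, 0.968 to 1.09), 1.74-fold higher in ITGAV (1.5 to 2.04) and 1.12-fold higher in LAMC1 (1.04 to 1.2). Against the SMPD1 control, the siGPR64 library was 1.08-fold lower in ITGB1 (0.995 to 1.17), 2.03-fold lower in ITGAV (1.75 to 2.35) and 1.71-fold higher in LAMC1 (1.58 to 1.85). Across all genes, these crossed comparisons called 10.5% higher and 8.02% lower for siSMPD1 against the GPR64 control, and 6.18% higher and 5.25% lower for siGPR64 against the SMPD1 control.

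**Figure D4:**
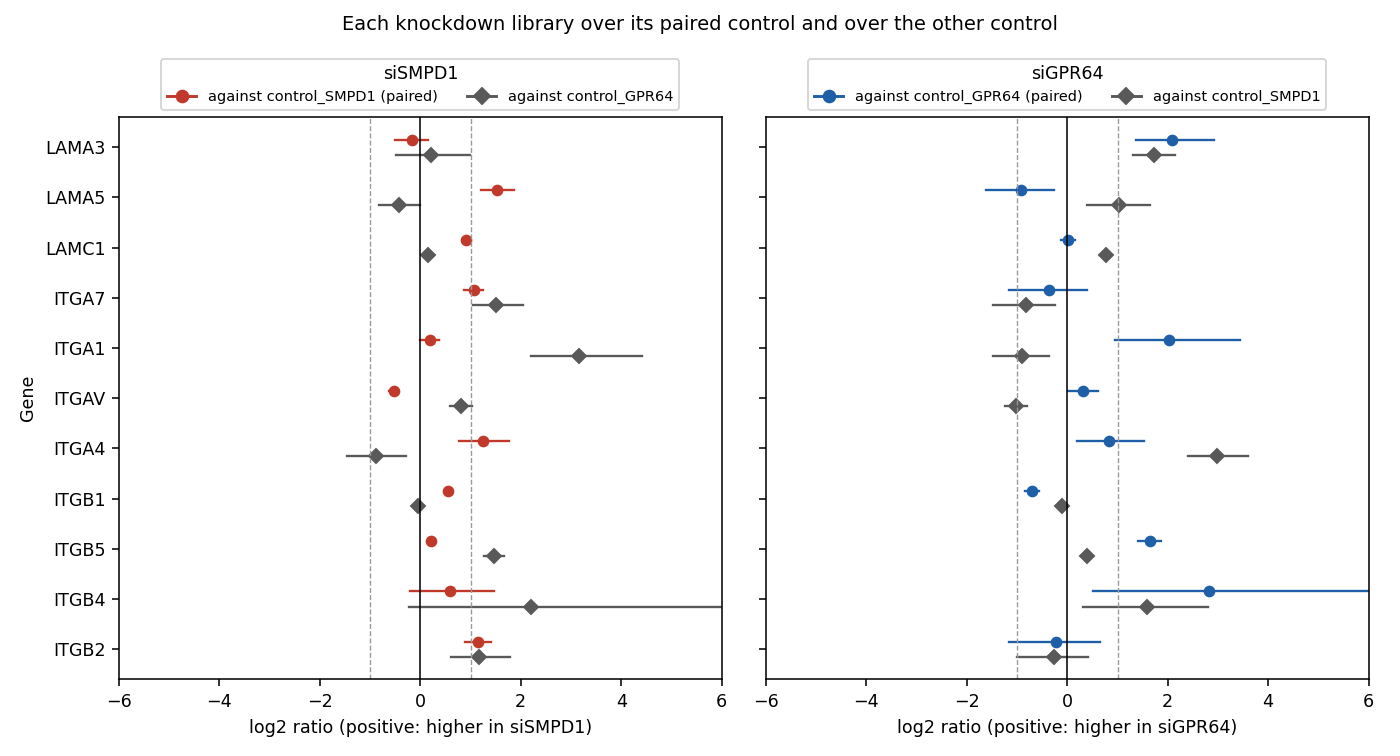
Log2 ratio of each knockdown library over its own control (circles) and over the other control (diamonds) for members that passed the rule in a knockdown and for LAMC1, ITGB1 and ITGAV, with 95% counting intervals. ITGA7 and ITGB2 lay above 2-fold against both controls for siSMPD1 and LAMA3 and ITGB4 for siGPR64, whereas LAMA5 lay on opposite sides of 0 in both panels.

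With both controls taken as replicates of 1 group, edgeR's quasi-likelihood test called none of the 26 members tested for either knockdown at an adjusted p under 0.05. At an unadjusted p under 0.05 it called ITGA7 for siSMPD1 (edgeR adjusted p = 0.999, unadjusted 0.0354) and LAMA3 for siGPR64 (edgeR adjusted p = 1, unadjusted 0.0119). Over all 13664 genes edgeR called 0% for both knockdowns after adjustment, with 179 genes at an unadjusted p under 0.05 for siSMPD1 and 313 for siGPR64. DESeq2 called 0.00732% (1 gene, not a member) for siSMPD1 and 0% for siGPR64.

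Whether the knockdowns differed from each other was read from the ratio of the ratios, siGPR64 over siSMPD1, with an exact conditional interval for the 4 counts. Of the 20 members measured in both pairs, 12 had an interval that left out equality. So did 44.1% of the 12386 genes measured in both pairs. For LAMA5, ITGB1 and ITGAV the pairs also ran opposite ways, each beyond counting error. The share of all genes that did so was not counted. The log2 difference was -2.46 (-3.23 to -1.72) for LAMA5, -1.25 (-1.40 to -1.10) for ITGB1 and 0.85 (0.54 to 1.16) for ITGAV. Among members past the rule in 1 pair, the difference was 2.28 (1.46 to 3.17) for LAMA3, 1.43 (1.19 to 1.67) for ITGB5, 1.91 (0.73 to 3.26) for ITGA1, -1.43 (-2.25 to -0.63) for ITGA7 and -1.39 (-2.34 to -0.46) for ITGB2. For ITGA4 (-0.40, interval -1.25 to 0.44) and ITGB4 (2.72, -0.30 to 8.27) the pairs could not be told apart at this depth. Each of these differences also holds the difference between the controls.

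Ratios between members within a library do not depend on library scaling. The pairs were chosen after their values were seen, and are given as description. ITGB5 had 0.510 counts per count of ITGB1 in the siSMPD1 library and 0.642 in its control, and 0.910 in the siGPR64 library and 0.179 in its control. The GPR64 pair thus held both the highest and the lowest balance of these beta subunits. LAMA3 had 0.470 counts per LAMA5 count in the siSMPD1 library and 1.54 in its control, against 2.48 in the siGPR64 library and 0.302 in its control, so the balance of these alpha chains moved opposite ways in the pairs. LAMC1 had 1.06 counts per LAMB1 count in the siSMPD1 library, 0.862 in the siGPR64 library and 0.911 in the GPR64 control, and 0.499 in the SMPD1 control, which stood apart. ITGA5 had 3.09 counts per ITGAV count in the siSMPD1 library and 1.83 in its control, and 4.11 in the siGPR64 library and 3.51 in its control. ITGA6 had 0.876 counts per ITGA7 count in the siSMPD1 library and 1.42 in its control, and 1.76 in the siGPR64 library and 1.49 in its control.

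**Figure D5:**
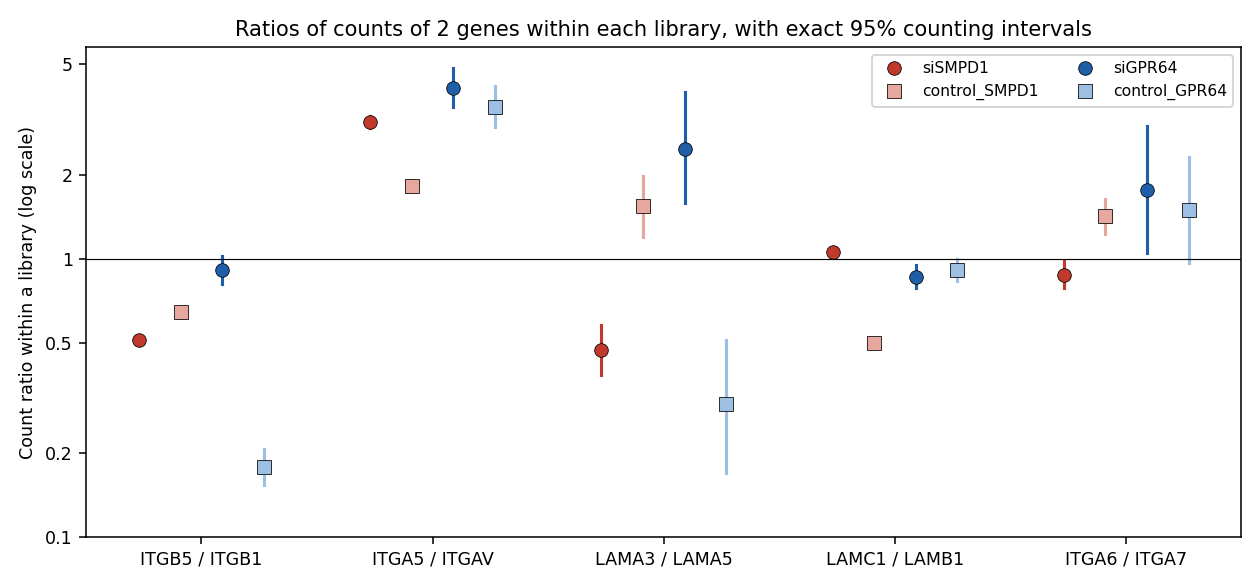
Counts of 1 member per count of another in the same library (log axis), for 5 pairs of laminin or integrin genes, with 95% counting intervals. The ITGB5 to ITGB1 ratio lay between 0.179 in the GPR64 control and 0.910 in the siGPR64 library, and the LAMC1 to LAMB1 ratio at 0.499 in the SMPD1 control and between 0.862 and 1.06 elsewhere.

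Genes that work with laminins and integrins were read from 3 lists. Of the basement membrane partners, 1 of 18 measured genes was higher in the siSMPD1 library (SDC1, a heparan sulphate proteoglycan, 2.49-fold, 1.34 to 5.12) and none was lower, with a median log2 ratio of 0.28, against 2.49% higher and 1.11% lower of all genes. In the siGPR64 library 5 of 19 were higher and none lower, with a median of 0.34. Of all genes, 6.56% were higher and 5.18% lower in that comparison. NID2, a nidogen that links laminin to collagen IV, had 64.6 CPM in the siGPR64 library and 18.5 CPM in its control (3.47-fold, 2.56 to 4.84). FREM2, a protein of the embryonic basement membrane, had 36.0 CPM in the siGPR64 library and 12.3 CPM in its control (2.89-fold, 1.97 to 4.42). SPARC, which binds collagen IV, was 2.45-fold higher (2.20 to 2.73), COL18A1 2.05-fold higher (1.12 to 4.02) and NID1 2.88-fold higher (1.13 to 9.52, on 16 counts in the siGPR64 library and 6 in its control). The controls differed here as well: NID2 was 5.50-fold lower (4.21 to 7.37) and FREM2 3.89-fold lower (2.80 to 5.60) in the GPR64 control than in the SMPD1 control. Set against the SMPD1 control, the siGPR64 library was 1.58-fold lower in NID2 (1.35 to 1.86) and 1.33-fold lower in FREM2 (1.08 to 1.67), and 1.44-fold higher in SPARC (1.35 to 1.54). NID1 and COL18A1 were also above that control. NID1 had 6.27 CPM in the siGPR64 library and 1.67 CPM in the SMPD1 control, on 16 and 32 counts, and COL18A1 12.1 and 7.96 CPM. SDC1 was 1.11-fold lower in the siSMPD1 library than in the GPR64 control, with an interval of 0.381 to 2.66 that included equality.

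Among integrin adaptors and focal adhesion genes, none of 35 passed the rule in either direction in the siSMPD1 library (median log2 ratio 0.07). Of all genes, 2.49% were higher and 1.11% lower in that comparison, so few of 35 would pass at those shares. In the siGPR64 library 3 of 35 were higher and 1 was lower (median 0.34), against 6.56% and 5.18% of all genes, shares close to these counts. KANK1, which links talin to microtubule capture sites, was 7.51-fold higher (3.61 to 20.9). The parvins PARVB and PARVG, partners of integrin-linked kinase, were 4.77-fold (2.93 to 8.51) and 2.54-fold (1.37 to 5.12) higher. PTK2, focal adhesion kinase, had 153 CPM in the siGPR64 library and 318 CPM in its control, 2.07-fold lower (1.84 to 2.34). Set against the SMPD1 control it was 2.41-fold lower (2.18 to 2.68), while KANK1 was 1.23-fold higher (0.893 to 1.67), PARVB level (interval 0.784 to 1.26) and PARVG 2.06-fold lower (1.46 to 3.02).

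Of the other integrin ligands, 2 of 20 were lower in the siSMPD1 library and none higher (median log2 ratio 0.32), against 1.11% and 2.49% of all genes. CYR61, a matricellular ligand of ITGAV integrins, had 4.98 CPM in the siSMPD1 library and 22.3 CPM in its control, 4.46-fold lower (3.58 to 5.67), and its relative CTGF 2.91 and 7.60 CPM, 2.59-fold lower (1.90 to 3.62). Against the GPR64 control, CYR61 was 3.96-fold lower (2.82 to 5.59) and CTGF 3.14-fold lower (1.92 to 5.12). In the siGPR64 library 4 of 18 were higher and 1 lower (median 0.13), against 6.56% and 5.18% of all genes. FBN1, a microfibril protein with an RGD motif, had 140 CPM in the siGPR64 library and 28.8 CPM in its control, 4.84-fold higher (3.82 to 6.24), and COL1A2, a collagen I chain, 442 and 200 CPM, 2.21-fold higher (2 to 2.44). COL1A1 was 2.19-fold higher (1.72 to 2.82). EDIL3, an RGD ligand of ITGAV integrins, had 3.13 CPM in the siGPR64 library and 17.8 CPM in its control, 5.43-fold lower (2.68 to 13.9). Against the SMPD1 control FBN1 was level (1.02-fold, 0.909 to 1.14) and COL1A1 was 3.26-fold higher (2.75 to 3.88), while COL1A2 was 1.41-fold lower (1.32 to 1.5) and EDIL3 1.86-fold higher, with an interval of 0.749 to 4.17 that included equality.

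Read over the 20 members measured in both pairs, the GPR64 control held the lowest of the 4 values for 9 members, namely ITGA1, ITGA2, ITGA5, ITGAV, ITGB4, ITGB5, LAMA2, LAMA3 and LAMB3. Over 12386 genes it was the lowest library for 32.6%. The siSMPD1 library held the highest value for 8 members, among them ITGA7, ITGB2, LAMB2 and LAMC1, while over all genes it was highest for 24.5%. The siGPR64 library was highest for 6 of the 20 members, against 25.9% of all genes. The SMPD1 control and the GPR64 control were highest for 3 members each, against 19.8% and 29.8% of all genes. Antisense transcription could not be separated, since the strand setting of the counting is not stated. Of the members discussed at length, the exons of ITGB2 overlapped opposite-strand genes over 4.46% of their length, LAMA5 over 2.53% and ITGAE over 7.59%, while ITGB5, LAMA3, LAMC1 and ITGA4 had no such overlap. The opposite-strand share was 2.47% for ITGAV, 1.22% for ITGA1, 0.816% for ITGA7 and 0.699% for ITGB1. ITGA1 exons also overlapped genes on the same strand over 5.63% of their length.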

How the data were processed

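Total RNA from A673 cells was, per the labels' protocols, depleted of ribosomal RNA and read from both ends. The deposited values are whole-number gene counts, which the authors made with bcl2fastq, TopHat2, SAMtools and HTSeq on build hg19, per the submitters' processing notes. The tools' versions, the annotation and the strand setting: not given in the sources used here. Left out were the 5 HTSeq summary lines (36.5% to 44.8% of each table's total).

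The counts were scaled with edgeR 4.0.16 (TMM) in R 4.3.3. Log2 ratios used a prior of 0.5 counts in proportion to library size, and intervals are exact Clopper-Pearson at 95%. A library with 0 counts was set to 3 counts and its ratio given as a bound. With 1 library per group there was no replicate test between conditions, and sequencing reads without molecular identifiers are not independent molecules. As alternatives, both controls were pooled as 1 group and tested with edgeR and with DESeq2 1.42.0, each knockdown was set against the other control, and the scaling, prior, filter and fold were varied. The pooled tests treat 2 control libraries as replicates, although nothing in the labels says that they came from separate cultures of 1 experiment. The scripts were tested on simulated data.

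The members, lists and tests were chosen with earlier results of these data known. Counts and sums cover all members and markers, of which 1 member and 1 marker are not reported here by name. Of each list of partner genes, those past the rule of size were named, up to 4 per comparison by the interval bound furthest from 0. COL18A1, the fifth in that order for siGPR64, is named as well. Exon lengths are unions of GENCODE v29 exons (GRCh38), used for lengths and overlaps only. Promoter windows are from RefSeq (GRCh38.p14); they do not share the build of the counts.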

Additional observations from a re-analysis of the deposited data

Results flagged for a closer look

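For 3 of the 20 members measured in both pairs, the knockdowns ran opposite ways against their own controls, each beyond counting error. The share of all genes that did so was not counted, so this number cannot be set against a background. LAMA5 was higher in the siSMPD1 library (302 counts, against 106 in its control) and lower in the siGPR64 library (29 counts, against 63 in its control), a log2 difference of -2.456 between the ratios (siGPR64 minus siSMPD1, interval -3.225 to -1.715). ITGB1 followed the same order, with 7612 counts in the siSMPD1 library and 5298 in its control, and 652 in the siGPR64 library and 1212 in its control (-1.249, interval -1.398 to -1.102). ITGAV ran the other way, with 2019 counts in the siSMPD1 library and 2974 in its control, and 195 in the siGPR64 library and 179 in its control (0.8498, interval 0.538 to 1.162). The intervals cover counting error only, and with 1 library per group a difference between the knockdowns was not tested over replicates. For LAMA5 and ITGAV the controls themselves differed past 2-fold, and the part of that difference in these values was not tested.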

How the results depend on the processing

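No paired analysis was possible because each group holds 1 library. All 65 single-gene ratios kept their side of the rule of size with DESeq2 size factors, with library totals and with a prior of 2 counts, and their direction except, with library totals, ITGB2 (0.03) and LAMB2 (0.01) between the controls. Only the knockdown ratios, 21 for siSMPD1 and 22 for siGPR64, could be set against the other control. Of these, 15 kept their side of the rule or stayed within their interval, and 14 that passed in neither case moved (ITGAV of siSMPD1 to 0.80 and ITGB1 of siSMPD1 to -0.04 among them). A further 5 newly passed, 2 no longer passed, and 7 that passed in at least 1 case turned direction. The last 7 were the log2 ratios of LAMA5 (-0.43 for siSMPD1, 1.04 for siGPR64), LAMB3 (1.34 for siSMPD1, -1.11 for siGPR64), ITGA4 (-0.89 for siSMPD1), ITGA1 (-0.90 for siGPR64) and ITGAV (-1.02 for siGPR64). The summed integrins of siGPR64 turned as well (-0.016). Summed integrins of siSMPD1 moved to 0.472 against the other control and 0.289 with library totals; summed laminins moved to 0.104 for siSMPD1 and 0.26 for siGPR64 against the other control. At 1.5-fold, 7 members were higher and 1 lower for siSMPD1 (7.26% and 4.78% of all genes), 3 were lower for siGPR64 (11.3%), and 5 were higher between the controls (14.6%). The count of lower members was 1 of 36 for siSMPD1 with no filter (1.34% of all genes). Against the other control it was 1 of 23 for siSMPD1 (8.02% of all genes) and 3 of 23 for siGPR64 (5.25%). At a mean of at least 5 CPM it was 0 of 16 for siGPR64 (4.87% of all genes). With both controls as 1 group, edgeR and DESeq2 each called 0 members higher and 0 lower for either knockdown; at an unadjusted p under 0.05 edgeR had 1 member for each, and DESeq2 0 for siSMPD1 and 1 for siGPR64. The median log2 ratio moved to 0.0541 (at least 5 CPM) or 0.15 (other control) for siGPR64 and to -0.41 between the controls with no filter. The cause of the moves against the other control was not tested. Depth limits the GPR64 pair, where 15 members had at most 3 counts in each library.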
